A study of Mus musculus with 9 samples.

Results

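The probes described here are the 60-base oligonucleotides whose names start with A_30_P on a 1-colour Agilent array. They are defined by name, and signal decided only which of them were tested. They were chosen with earlier results of these data known. The array design holds 15955 of them among 91188 distinct non-control probes, or 17.5%. Each is printed at 2 spots, while the other probes have a median of 1. The deposited files give a sequence for every one, but leave its genome position as unmapped and its description as unknown, so the class of transcript each was designed for is not given. The other name series on the array (A_51_P, A_52_P, A_55_P, A_65_P, A_66_P and mmu) served as the comparison.

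RNA came from the aorta of male C57BL/6J mice after a 12-week intervention. The ND group had a normal diet, the HF group a high fat diet, and the HE group the same diet with exercise of 60 min. The study had 24 mice, 8 per group, and 3 arrays per group are analysed here. Age is not given in the labels, and they do not tie an array to a mouse, so a p-value here covers array-to-array spread, which may be technical. The design text speaks of aortic endothelium and the labels of whole aorta. No probe carries a gene name in the files, so the tissue was not checked against marker genes. Fewer cells of a type and less RNA per cell cannot be told apart in such samples.

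Arrays of this kind were used to read long non-coding RNAs beside messenger RNAs. Long non-coding RNAs are transcripts with no long open reading frame. Many start near the promoters of protein-coding genes and run the opposite way, and others are host transcripts from which small nucleolar RNAs or microRNAs are cut. The labelled copy RNA is antisense, so a probe reads in the same direction as the transcript it detects, and 2 probes of opposite direction at one place report on opposite strands.

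A level is the log2 processed signal of a probe minus the 75th percentile of its array, so that 0 is the brightness of the probe at that percentile. Probe brightness depends on the probe as well as on the RNA, and levels of different probes are not amounts of RNA relative to each other. A probe was counted as detected on an array when the scanner software flagged it as well above background, and was tested when detected on 3 or more of the 9 arrays.

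The sequences that carry the results are shown first. The first set holds 4 of the probes named below for a small p and a difference of 2-fold or more, each detected on all 9 arrays. Other members detected on all 9 arrays had larger differences in HE against ND, such as A_30_P01026803 (-1.63) and A_30_P01030462 (1.59). In A_30_P01022304 the capitals mark the 41 bases that match, on the opposite strand, bases near the start of Snhg3 (RefSeq, GRCm38.p6).
A_30_P01022304: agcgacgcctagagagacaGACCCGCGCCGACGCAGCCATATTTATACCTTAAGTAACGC
A_30_P01026797: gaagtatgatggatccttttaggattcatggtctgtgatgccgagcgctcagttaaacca
A_30_P01025746: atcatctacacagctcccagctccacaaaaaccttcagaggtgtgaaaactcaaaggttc
A_30_P01028775: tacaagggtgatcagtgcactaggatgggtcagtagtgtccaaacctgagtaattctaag

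The second set shows what the brightest probes look like. Capitals mark the motif CCCTCCC in the first line, and the 47 bases that the other 2 share.
A_30_P01027833: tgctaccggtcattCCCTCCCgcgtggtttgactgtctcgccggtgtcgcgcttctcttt
A_30_P01023888: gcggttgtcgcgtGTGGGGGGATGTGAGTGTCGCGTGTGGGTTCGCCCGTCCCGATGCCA
A_30_P01023029: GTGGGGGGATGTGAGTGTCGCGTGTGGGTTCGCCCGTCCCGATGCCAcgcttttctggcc

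The third set is a pair that reads 59 shared bases in opposite directions, with the C-rich motif and its complement in capitals.
A_30_P01029805: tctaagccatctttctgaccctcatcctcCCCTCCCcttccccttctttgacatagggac
A_30_P01021627: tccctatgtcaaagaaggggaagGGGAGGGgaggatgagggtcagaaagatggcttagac

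The last set holds probes over microRNA hairpins that were detected on one strand and not on the other. Capitals mark the bases shared with the RefSeq hairpin of Mir8110 for the first pair and of Mir92-2 for the second.
A_30_P01032185: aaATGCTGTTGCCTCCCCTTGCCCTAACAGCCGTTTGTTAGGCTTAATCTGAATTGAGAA
A_30_P01031828: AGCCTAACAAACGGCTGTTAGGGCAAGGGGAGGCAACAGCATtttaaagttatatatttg
A_30_P01026535: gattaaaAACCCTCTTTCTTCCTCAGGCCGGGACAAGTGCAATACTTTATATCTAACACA
A_30_P01033592: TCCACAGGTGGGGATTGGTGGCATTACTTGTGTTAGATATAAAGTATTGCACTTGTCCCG

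Not quite 50% of the A_30_P probes gave clear signal in the aorta. Of the 15955, 7441 (46.6%) were detected on 3 or more arrays and tested, beside 48.5% of all other probes. For a member with 2 spots, 1 flagged spot was enough, while other probes have a median of 1 spot. The share was 63.9% for A_51_P, 54.4% for A_55_P and 40.0% for mmu. No array detected 7556 of the A_30_P probes (47.4%), and 5370 (33.7%) were detected on all 9 arrays. The members at the edge of the rule were dim: the 268 detected on 3 arrays had a median level of -2.30, and the 316 detected on 2 arrays one of -2.48.

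The detected share overlapped between the groups. In ND it was 47.6%, 42.7% and 45.3% on the 3 arrays, with a mean of 45.2% ± 2.44 (SD, n = 3). In HF it was 39.1%, 43.7% and 45.5%, with a mean of 42.8% ± 3.33 (SD, n = 3). In HE it was 44.8%, 35.0% and 46.8%, with a mean of 42.2% ± 6.26 (SD, n = 3). The second HE array was the lowest of the 9 and the first HF array the next lowest, and both were also low for the other series. On every array fewer A_30_P probes than other probes were detected. The gap was 1.33 ± 0.310, 2.03 ± 0.682 and 1.75 ± 0.105 percentage points in ND, HF and HE (SD, n = 3 each).

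Detection in one group alone was rare. Of the 15955 A_30_P probes, 9 were detected on all 3 ND arrays and on none of the 6 others, 1 likewise for HE and 0 for HF. Of the 75233 other probes, 44, 4 and 3 were, so the lean to ND was not particular to the A_30_P probes. A further 1 A_30_P probe was detected on all ND and HF arrays and on no HE array, beside 11 of the others. The 3 brightest of the ND set and the other two were dim, with mean levels over the 9 arrays between -2.58 and -1.99. The brightest of the ND set, A_30_P01020864, had levels of -1.51, -1.57 and -1.67 in ND, -1.89, -3.39 and -3.91 in HF, and -3.80, -3.36 and -2.08 in HE. Its ND arrays lay above the 6 others, with the first HF array the nearest. Each probe detected in 1 group alone was tested only because of the arrays that detected it, so no fold or p is given for those probes.

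The tested A_30_P probes were slightly dimmer than the others. Their median level was -0.11, against 0.12 for all other tested probes. The median of the A_30_P probes minus that of the others was -0.29, -0.15 and -0.24 on the ND arrays, -0.27, -0.28 and -0.24 on the HF arrays, and -0.21, -0.22 and -0.22 on the HE arrays. The difference was below 0 on each of the 9 arrays, and the groups overlapped. At the top of the range the order was the other way: 48 A_30_P probes (0.645%) lay above a level of 8, beside 0.477% of the others. The median within-group SD was 0.220, against 0.221 for other probes. A member's value averages 2 spots, while other probes have a median of 1, so these spreads are not on equal terms.

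Detection and level ran with base composition. An A_30_P probe held on average 26.5 G or C bases of 60, and other probes 24.6. The tested A_30_P probes held 28.3, those not tested 24.96, and the 48 brightest 38.3. Over 7 classes of rising G+C content the share tested rose from 9.15% to 86.9%, and in each class it was below that of the other series, which ran from 17.3% to 90.7%. So the A_30_P probes were detected less often at a given G+C content, although they were the richer set.

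C bases and G bases did not go with signal alike. Of the 912 A_30_P probes with 20 or more C bases, 95.4% were tested, with a median level of 2.09. Of the 1087 with 20 or more G bases, 57.9% were tested, with a median level of -0.59. The clearest case was a short run of C, a motif chosen after its values were seen. All 126 probes with CCCTCCC or CCCGCCC in the printed direction were tested, with a median level of 4.60, as were 98.8% of the 341 other-series probes that held it. Of the 125 A_30_P probes with the complement, GGGAGGG or GGGCGGG, 60.8% were tested, with a median level of -0.57. The C-rich motif stood in 0.790% of A_30_P probes and 0.453% of the others. It was held by 21 of the 48 A_30_P probes above a level of 8, and the G-rich motif by 0.

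The 6 brightest members had nearly the same level in every group. A_30_P01027833, shown above with its CCCTCCC, had levels of 10.86, 10.75 and 10.62 in ND, 10.77, 11.04 and 11.02 in HF, and 11.10, 10.84 and 10.83 in HE. The groups overlapped, and HE minus ND was 0.18 ± 0.14 (SE, adjusted p = 0.57, limma), or -0.03 with slide as a block. The other five had mean levels between 10.4 and 11.4, and 2 of them, A_30_P01023888 and A_30_P01023029, share the 47 bases printed above and so are not separate readings. A_30_P01031448 has a place in the annotation: it matches bases at the start of Akap11, which encodes an A-kinase anchor protein, on the opposite strand (chr14:78536811-78536868, GRCm38.p6). No saturated spot occurred on any array.

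Compared with other probes, the A_30_P probes were often laid out in opposite-strand pairs. A stretch of 20 or more bases was shared in reverse complement with another probe of the same series by 3909 of them (24.5%), while no other series exceeded 1.56%. Stretches shared in the same direction within the series were held by 997 (6.25%), against 12.0% of A_55_P probes. Partners in other series were not counted here. The 1364 pairs of opposite direction whose probes had no other partner gave a view of both strands of one place. Both probes were tested in 333 pairs, 1 of the 2 in 619 (45.4%) and neither in 412. Among the 219 such pairs of the same direction, 100 had both tested, 30 had 1 tested (13.7%) and 89 neither. The level of tested partners differed by a median of 2.13 between directions and of 0.36 within one direction.

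The C-rich motif lay on the brighter side of nearly all pairs that held it in 1 probe. Of 37 such opposite-strand pairs, counted whether or not a probe had further partners, the probe with the motif was the brighter in 35. The median level was 5.10 for it and -1.65 for its partner. In the pair printed above, A_30_P01029805 was detected on all 9 arrays, with levels between 7.93 and 8.81. Its partner A_30_P01021627 was detected on fewer than 3 arrays, with levels between -4.26 and -1.52. Whether these differences between strands come from the RNA or from the probes was not tested.

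A minority of the members could be placed. Exact matches of 30 or more bases were sought in the RefSeq promoter windows of GRCm38.p6, from 250 bases before to 50 after a gene's start, and in RefSeq microRNA hairpins. Windows matched 257 probes, 239 of them at 1 place, and hairpins matched 16, together 1.71% of the members. Near starts of protein-coding genes, 59 probes read in the gene's direction and 87 in the opposite one, so 40.4% matched in direction. For A_51_P this share was 82.8% of 29 probes, and for A_55_P 68.8% of 311. Among members with a single place, 77.0% of the 74 opposite to a protein-coding gene were tested, and 61.1% of the 54 in its direction. For long non-coding genes the shares were 62.1% of 66 and 47.1% of 51.

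The probe near the start of Snhg3 had the smallest p of the annotated members in HF against ND and in HE against ND. Snhg3 is a long non-coding host gene of small nucleolar RNAs. A_30_P01022304 reads against it over chr4:132353637-132353677, bases 10 to 50 of the transcript. Its levels were 4.56, 5.04 and 4.76 in ND, 3.93, 3.35 and 3.86 in HF, and 3.40, 3.07 and 3.67 in HE. All ND arrays lay above all HF and HE arrays, and HF and HE overlapped. HF minus ND was -1.08 ± 0.22 (SE, unadjusted p = 0.000709, adjusted p = 0.36) and HE minus ND -1.41 ± 0.22 (unadjusted p = 0.000101, adjusted p = 0.16, limma). On the slide that held the 3 ND arrays and 1 HF array, the HF array was lower by a difference of -0.86.

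Probes at Tug1 and Gas5, long non-coding genes on the lists, were in part detected and differed little between groups. Tug1 is a long non-coding RNA gene with a bidirectional promoter. A_30_P01023757 reads in its direction at chr11:3648933-3648992, upstream of the annotated start, with levels of 0.16, 0.50 and 0.29 in ND, 0.19, 0.17 and 0.03 in HF, and 0.41, 0.75 and 0.56 in HE. HE lay above HF on all arrays and overlapped ND, with HE minus HF at 0.45 ± 0.14 (adjusted p = 0.34, limma). It was 0.27 under normexp, an alternative background correction. Normexp was run with an offset of 50 units added to every signal, which by itself shrinks log2 differences of dim probes. The opposite-strand probe of the same place, A_30_P01022792, was detected on all 9 arrays too, with levels between 0.08 and 0.73 and overlapping groups.

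Gas5, another snoRNA host gene, had 3 probes in its direction that tile the bases before its start. Only the farthest, A_30_P01032943 (chr1:161034955-161035014), was detected on all 9 arrays, with levels between 0.95 and 1.45 in the 3 groups. HE minus ND was 0.25 ± 0.15 (adjusted p = 0.48, limma), and 0.11 with slide as a block. A_30_P01026655, next to it, was detected on 1 array, and A_30_P01029558, nearest the start, on 0.

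MicroRNA hairpins are the folded precursors from which mature microRNAs are cut. At Mir8110, A_30_P01032185 in the hairpin's direction (chr8:89024735-89024792) was detected on all 9 arrays, with levels between 4.04 and 4.52, and its opposite-strand partner A_30_P01031828 on 0. The hairpins of Mir92-2 and Mir363 belong to a microRNA cluster on the X chromosome. There the order of strands was reversed: A_30_P01026535, opposite to Mir92-2 (chrX:52741838-52741890), was detected on all 9 arrays, with levels between -0.30 and 0.15. A_30_P01033592 in the hairpin's direction was detected on 0, as were 3 probes in the direction of Mir363.

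On the same chromosome, 2 probes opposite to the start region of the long non-coding gene Kis2 were detected on all 9 arrays. A_30_P01019830 (chrX:52744667-52744726) had levels of 3.44, 3.41 and 3.39 in ND, 3.39, 3.45 and 3.51 in HF, and 3.70, 3.94 and 3.52 in HE. The HE arrays lay just above the others, with HE minus ND at 0.31 ± 0.13 (adjusted p = 0.33, limma), or 0.20 without the second HE array. A_30_P01031275 at chrX:52744581-52744640 went the other way, with HE minus ND at -0.27 ± 0.13 (adjusted p = 0.38, limma), or -0.16 without the second ND array. Of the 16 hairpin probes 8 were tested, and of these only A_30_P01029937 over Mir410, a microRNA of an imprinted cluster, had an unadjusted p under 0.05 in any comparison, beside 9.81% to 14.7% of all probes tested in each. It was higher in HE than in ND by 0.39 ± 0.15 (adjusted p = 0.31, limma), or 0.20 under normexp.

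No A_30_P probe passed an adjusted p of 0.05 in any of the 3 comparisons (limma, Benjamini-Hochberg over all 43948 probes tested), and neither did any other probe (0.0%). The smallest adjusted p of a member was 0.29 in the diet comparison (HF and ND), 0.22 in the exercise comparison (HE and HF) and 0.16 for HE and ND. The comparisons below therefore rest on unadjusted p under 0.05 as a description. The HF arrays enter 2 of them, and the ND and HE arrays 2 each, so the comparisons are not independent.

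With the high fat diet, more A_30_P probes were lower than higher. HF against ND gave 168 higher (2.26%), against 4.49% of all probes tested, and 425 lower (5.71%), against 5.32%, together 593 (7.97%), against 9.81%. The HF arrays all lay above the ND arrays for 351 members (background 8.61%) and all below for 732 (background 7.73%). The median difference was -0.05 for the A_30_P probes and 0.01 for all others, and under scaling by the array median it turned to 0.03 for the A_30_P probes, with 339 higher and 227 lower. The mmu series went the same way (566 higher, 1014 lower), and A_51_P the other way (336 higher, 92 lower). Of members at a level of 4 or above, 14.3% were lower and 1.47% higher, beside 10.6% and 3.77% of other probes as bright. Among the 126 probes with the C-rich motif, 23 were lower and 3 higher, and among the 337 tested probes of other series that held it, 46 and 5.

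These counts moved with single arrays. Without the second ND array they were 162 higher and 214 lower, with a median of -0.01. That array had the highest A_30_P deviation of the 9 in every G+C class but the lowest. Without the first HF array they were 327 and 635, and without the second 81 and 264. With slide as a block they were 47 and 410.

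The differences of 2-fold or more were mostly of dim probes. There were 5 higher (background 0.241%) and 34 lower (background 0.46%), with median levels of -2.14 and -2.18. Above a level of 0 lay 0 and 2 of them, and under normexp only the Snhg3 probe A_30_P01022304 stayed at 2-fold. The normexp offset shrinks differences of dim probes whatever their source, so it is no check on them. A_30_P01020237 had the smallest p, with levels of -1.52, -0.77 and -1.36 in ND, -2.40, -2.84 and -2.68 in HF, and -1.87, -1.68 and -1.59 in HE. Each HF array lay below all 6 others. HF minus ND was -1.43 ± 0.21 (unadjusted p = 6.92e-05, adjusted p = 0.29, limma) and became -0.42 under normexp.

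A_30_P01023316 was detected on all 3 ND arrays, no HF array and 1 HE array. Its levels were -1.38, -0.90 and -1.44 in ND and -2.65, -2.33 and -3.17 in HF. A_30_P01025353 was detected on all 3 ND arrays, 1 HF array and no HE array. Its levels were -1.81, -1.71 and -1.85 in ND, -2.63, -3.13 and -2.82 in HF, and -3.06, -2.55 and -3.34 in HE. Both passed the filter only through the ND group, so no fold or p is given for these 2 probes. The 3 higher probes picked by the rule, A_30_P01027265, A_30_P01023759 and A_30_P01021232, differed mainly through 1 array. A_30_P01023759 had levels of -0.87, -2.28 and -0.43 in ND, -0.62, 0.21 and 0.26 in HF, and 0.40, 0.49 and -1.01 in HE. The second ND array alone was far down, and the groups overlapped. HF minus ND was 1.26, 1.14 and 1.03 for the 3 probes, with unadjusted p between 0.0492 and 0.0727 (adjusted p of 0.51 to 0.54, limma), and 0.49, 0.60 and 0.29 without that array. A_30_P01027265 and A_30_P01021232 share stretches with other probes.

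With exercise added to the high fat diet, more A_30_P probes were higher than lower. HE against HF gave 602 higher (8.09%), against 6.26% of all probes tested, and 365 lower (4.91%), against 6.18%, together 967, against 12.4% of all probes. All HE arrays lay above all HF arrays for 970 members (background 10.1%) and below for 629 (background 11.5%). The median difference was 0.05 for the A_30_P probes and -0.02 for all others, and it turned to -0.02 for the A_30_P probes under scaling by the array median, with 296 higher and 610 lower. The mmu series again went the same way (1218 higher, 537 lower) and A_51_P the other way (134 higher, 480 lower). Without the third HF array the counts were 467 and 154.

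The HE against HF difference ran with G+C content. Its median was -0.26 in the A_30_P class of lowest G+C, which held only 29 tested probes, and 0.13 in the highest. In the highest class 83 of 657 tested A_30_P probes were higher and 7 lower. The other series gave medians of -0.14 and 0.12, with 25 of 273 higher and 1 lower in the highest class. The second HE array had the steepest run, with a median deviation from each probe's mean of -0.36 in the lowest class and 0.12 in the highest. With each array's class medians removed, the counts were 568 higher and 391 lower. The part of base composition in single probes was not tested.

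The bright probe A_30_P01025746 was the clearest case of a lower level with exercise. Its levels were 3.16, 3.47 and 3.19 in ND, 4.003, 3.37 and 4.06 in HF, and 2.46, 2.52 and 2.80 in HE. Every HE array lay below all 6 others, and ND and HF overlapped. HE minus HF was -1.22 ± 0.20 (unadjusted p = 0.000189, adjusted p = 0.22, limma). It was -1.21 under normexp, and -1.22 between the 2 HE and 2 HF arrays that shared a slide. It had no annotated place among the tables used.

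It was among the members with 2-fold differences here, 8 higher (background 0.246%) and 12 lower (background 0.239%). Most of these were dim, with 1 higher and 2 lower above a level of 0. Under normexp, whose offset shrinks differences of dim probes, A_30_P01025746 alone stayed at 2-fold. A_30_P01024719 had levels of -1.47, -1.80 and -1.97 in ND, -2.34, -2.67 and -1.86 in HF, and -1.004, -1.02 and -0.98 in HE. Each HE array lay above all others, with HE minus HF at 1.29 ± 0.21 (adjusted p = 0.22, limma) and 0.40 under normexp. A_30_P01032466, the member detected in HE alone, had levels of -2.29, -1.96 and -2.26 in ND, -2.80, -2.52 and -2.76 in HF, and -0.85, -1.46 and -1.82 in HE.

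A_30_P01023126 was higher by 1.08 ± 0.22 (adjusted p = 0.28, limma). A_30_P01032827 was lower, with a difference of -1.04 ± 0.23 (adjusted p = 0.29, limma). A_30_P01030035, detected on all ND and HF arrays and no HE array, was at least 2.21-fold brighter in HF than in HE (adjusted p = 0.33, limma). Normexp gave differences of 0.35, -0.26 and -0.33 for these.

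Diet with exercise against the normal diet gave the largest counts, with near balance. HE against ND had 692 higher (9.30%), against 7.82% of all probes tested, and 644 lower (8.65%), against 6.89%, together 1336, against 14.7% of all probes. All HE arrays lay above all ND arrays for 895 members (background 10.4%) and below for 832 (background 10.1%). The median difference was -0.02 for the A_30_P probes and -0.02 for all others. The counts were 687 and 422 without the second ND array, 460 and 422 without the second HE array, and 199 and 444 with slide as a block. No slide held both groups, so no value within a slide could be given. On the first principal component of the members (30.2% of variance), the 4 arrays of the first slide had scores between -16.6 and -9.78 and the 4 of the second between 3.76 and 30.4. The third HE array, alone on its slide, was at -3.33.

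Here more of the 2-fold differences were of well detected probes. Of 40 higher (background 0.63%), 29 were detected on all 9 arrays, with a median level of 0.64. Of 60 lower (background 0.678%), 17 were, with a median level of -1.74. With slide as a block, only 5 of the higher and 36 of the lower stayed at 2-fold, while 38 and 58 kept their direction. Under normexp 3 and 7 stayed at 2-fold. A_30_P01026797 had levels of 4.55, 5.01 and 5.24 in ND, 5.20, 5.54 and 5.53 in HF, and 6.05, 6.44 and 6.02 in HE. Every HE array lay above every HF array, and the HF arrays lay above 2 of the 3 ND arrays. HE minus ND was 1.24 ± 0.20 (unadjusted p = 0.000181, adjusted p = 0.16, limma), 1.12 under normexp, and 0.98 with slide as a block.

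A_30_P01028775 had levels of -0.63, -0.38 and -0.40 in ND, -0.13, 0.41 and 0.08 in HF, and 0.68, 0.46 and 0.60 in HE. The 3 groups did not overlap, in the order ND, HF, HE. HE minus ND was 1.05 ± 0.16 (unadjusted p = 0.0001, adjusted p = 0.16, limma), and 0.64 under normexp. With slide as a block it was 0.66 ± 0.28 (SE). A_30_P01019505 was detected on all HE arrays and 1 ND array, with levels of -2.49, -1.90 and -2.78 in ND and -1.17, -0.94 and -1.27 in HE. Among the lower probes, A_30_P01029507 was detected on 3 ND, 2 HF and 0 HE arrays. Its levels were -1.48, -1.16 and -1.12 in ND and -2.29, -2.83 and -2.38 in HE. Each passed the filter only through its brighter group, so no fold or p is given.

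A further pair of annotated members was picked after their values were seen, for the smallest p after the Snhg3 probe in HE against ND. A_30_P01024337 reads against Plxna2, a plexin receptor gene for semaphorins, upstream of its start (chr1:194619579-194619619). Its levels were 0.96, 1.34 and 1.19 in ND, 1.32, 1.82 and 1.65 in HF, and 2.13, 2.59 and 1.94 in HE. Every HE array lay above all others, and HE minus ND was 1.06 ± 0.20 (adjusted p = 0.16, limma), or 0.77 with slide as a block. A_30_P01027940 reads in the direction of Ranbp17, an importin-beta family gene, upstream of its start (chr11:33513928-33513987). Its levels were -1.33, -1.27 and -1.17 in ND, -0.97, -0.78 and -0.80 in HF, and -0.56, -0.25 and -0.74 in HE. The 3 groups did not overlap, and HE minus ND was 0.74 ± 0.15 (adjusted p = 0.16, limma), and 0.36 under normexp. It was 0.67 with slide as a block.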

How the data were processed

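Per the labels, total RNA of mouse aorta was amplified to Cy3-labelled antisense copy RNA and hybridised to 9 arrays. Scanner output came from Agilent Feature Extraction, release 10.7.1.1, as the submitters' processing notes name it. The deposited files hold linear intensity values per spot, with background subtracted and spatial trends removed per the file headers. The authors' value table holds log2 values with nearly equal distributions across arrays; how it was scaled is not stated, and it served as an alternative (column medians of 4.79, correlations with the scanner values of 0.995 or more).

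Outlier spots were dropped, log2 processed signals of a probe's spots averaged, and the array's 75th percentile over non-control probes subtracted. A probe was detected where at least 50% of its spots were well above background. Probes detected on 3 or more arrays (43948 of 91188) entered one limma 3.58.1 fit (R 4.3.3) over the 9 arrays, with Benjamini-Hochberg adjustment over all of them. The fit was tested on simulated data. Matches to RefSeq tables needed 30 shared bases on either strand. No other column of per-sample values was present.

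Named probes were, per comparison and direction, the 3 of smallest p among those with a log2 difference of at least 1 and detected on all arrays of the higher group; the 6 brightest; up to 3 per group detected in it alone or absent from it alone; and any matched to a listed gene. Members and lists were chosen with earlier results of these data known. A bound ("at least") sets the brighter group's mean against the lowest signal called above background, or against the dimmer group's signal where that is higher. Arrays with the same replicate number did not deviate together (correlations from -0.25 to 0.14), so no pairing was used.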

Additional observations from a re-analysis of the deposited data

How the results depend on the processing

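Over the alternatives tried, 50 of 51 differences of single probes kept their direction, and none passed an adjusted p of 0.05 (lowest 0.057). The exception, A_30_P01027833 in HE against ND, was -0.0322 with slide as a block. Most of the 51 entered for a small p in these same data, so the kept direction is no support for them. They include probes detected in 1 group alone. Leaving out an array of the group not compared left a difference as it was. The differences of dim probes shrank under normexp, as its added offset makes them do whatever their source. Leaving out 1 array gave counts at unadjusted p under 0.05 from 345 to 962 for HF against ND (593 as reported), 621 to 1076 for HE against HF (967) and 882 to 1611 for HE against ND (1336). The median of the A_30_P probes minus that of the others lay between -0.0876 and -0.0144 in HF against ND, 0.0563 and 0.0745 in HE against HF, and -0.0257 and 0.0466 in HE against ND. Over the other alternatives it lay between -0.0689 and -0.0332, 0.0157 and 0.0787, and -0.0229 and 0.0102. With slide as a block, 2 members passed the adjusted threshold in HF against ND, A_30_P01032103 and A_30_P01029942, out of 25 probes; the HE against ND count was 643. That block compares 1 HF array with the ND arrays, and within that slide alone the HF against ND split was 34 higher and 365 lower. A_30_P01032103 had levels of -1.65, -1.49 and -1.52 in ND, -3.70, -0.51 and -0.37 in HF, and 0.03 without the block.

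Without a filter on dim probes, the HE against HF median minus that of the others was 0.0157, with 713 higher and 266 lower, and the median of all probes was 0.11 there and 0.12 in HE against ND. The level of the A_30_P probes minus that of the others was -0.15, -0.16 and -0.13 in ND, HF and HE under normexp. It was -0.32 and -0.28 in HF and HE with no filter, and -0.24 and -0.20 over probes detected on all arrays. The looser flag for a positive and significant signal detected 77.0%, 74.2% and 73.7% of the members in ND, HF and HE. With the replicate block, counts at unadjusted p under 0.05 fell to 451, 814 and 1138, from 593, 967 and 1336. No member passed an adjusted p of 0.05 there either. The cause of these shifts was not tested. With 3 arrays per group and signal near background for the dim probes, changes under 2-fold are poorly resolved.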
